A study of Homo sapiens with 4 samples.

Results

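The integrin and laminin chains examined here are 37 of the 59050 genes of the count table, picked by gene symbol: 18 integrin alpha chains, 8 integrin beta chains and 11 laminin chains. RNA had been sequenced from RCC4, an established clear cell renal carcinoma line that lacks functional VHL, in which either a scrambled shRNA (shCtrl) or an shRNA to PML (shPML, a single hairpin) could be induced from a lentivirus by doxycycline. Both groups received doxycycline at 100 ng/ml for 96 h, and bulk puromycin-selected populations were used rather than clones. There were 2 libraries in each group, numbered replicate 1 and 2, from 2 experiments with separate infections. An update to the record says that 2 sample labels were exchanged and have been corrected, and the corrected labels were used.

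Integrins are receptors in the cell membrane, each made of 1 alpha and 1 beta chain, that hold a cell to the matrix around it. The beta chain's tail is gripped inside the cell by talin and kindlin, which connect it to actin. The pair decides the ligand: collagens, laminins, proteins with an RGD motif such as fibronectin and vitronectin, or, on leukocytes, counter-receptors and complement fragments. Laminins are secreted trimers of an alpha, a beta and a gamma chain that polymerize into the basement membrane. In renal tubules the alpha 3 beta 1 and alpha 6 integrins bind the laminin of the tubular basement membrane.

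Levels are given as CPM, counts scaled to library size by TMM, and only as CPM per kb of exon where different genes are set against each other. The libraries held from 27781193 counted reads (shPML replicate 2) to 69870617 (shPML replicate 1), and a count of 0 allows a level of up to 0.0418 to 0.109 CPM (3 counts, for counting error only). PML was at 93.1 and 136 CPM in shCtrl replicates 1 and 2 and at 54.9 and 87.6 CPM in shPML replicates 1 and 2. Its log2 fold change was -0.69 (edgeR adjusted p = 0.32), and it was called lower once the experiment was a block. That value was -0.40 without shCtrl replicate 2 or without shPML replicate 1, and -1.06 without shPML replicate 2. All 10 renal epithelial and clear cell carcinoma markers were tested and none was at 0 in any library, and PAX8 lay between 302 and 427 CPM. The library of shPML replicate 2 stood apart in leukocyte markers. The sum over 9 of them was 1.26 and 1.94 CPM in shCtrl and 0.767 CPM in shPML replicate 1, but 159 CPM in shPML replicate 2. CD14 had 1177 counts there against 2 to 4 in the other libraries, and PTPRC had 346 against 0, 0 and 7. CD3E and MS4A1 were at 0 in every library. PPBP, on the platelet list, had 371 counts in shPML replicate 2 and at most 2 in the others. In bulk RNA, fewer cells of a type and less RNA per cell cannot be told apart. Values without that library, or from experiment 1 alone, are therefore given beside the results it touches.

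Of the 37 chains, 27 passed the filter on low counts (19 integrin and 8 laminin chains), and these were tested among 16516 genes. A gene was called when the adjusted p of edgeR's quasi-likelihood test (Benjamini-Hochberg over all genes tested) was under 0.05 and the log2 fold change of shPML over shCtrl was beyond 0.5. Without a block for the experiment, 2 of the 27 chains were called higher (ITGA2 and ITGA5) and 1 lower (ITGB1), where 0.0787% and 0.333% of all tested genes were, and 13 and 1 of the chains had an unadjusted p under 0.05, against 7.8% and 10.1% of all tested genes. When experiment was added to the fit as a block, 11 chains passed as higher and 2 as lower (ITGB1 and ITGA3), against 8.57% and 10.5% of all tested genes. The 11 were ITGA2, ITGA5, ITGAV, ITGB8, ITGAM, ITGAX, ITGB2, ITGB7, LAMA3, LAMA5 and LAMB1. They include ITGB2, ITGAX and ITGAM, whose highest library was shPML replicate 2, the one with the leukocyte markers. Their log2 ratios were 0.80, 1.89 and 1.13 in experiment 1, against 3.54, 5.50 and 2.13 in experiment 2. In 16 chains both shPML libraries lay above both shCtrl libraries (23.1% of all tested genes) and in 3 below (24.9%). Within the experiments, 9 chains had a log2 ratio above 0.5 in both (9.22% of all tested genes) and 1, ITGB1, below -0.5 in both (11.5%). The median log2 fold change of the 27 chains was 0.46, and that of all tested genes was 0.01. A chain that is high in 1 group passes the filter more easily, so these counts describe the 27 and not the 37.

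The chains differed widely in abundance. Per length, ITGA3 was the most abundant in shCtrl with a mean of 516 CPM per kb, followed by ITGB1 at 189.97, LAMB3 at 167 and LAMB1 at 122. In shPML the order was ITGA3 at 361 CPM per kb, ITGA5 at 195, LAMB1 at 176, LAMB3 at 157 and ITGB5 at 96.3, and ITGB1 had dropped to rank 7 with 59.9. In shPML the library ranges of ITGA5 and LAMB1 overlapped, as did those of LAMB1 and LAMB3, so those neighbours do not differ beyond their spread. At the other end of the tested chains, ITGA2B, LAMA2, ITGA10, ITGAX and ITGAM had a mean of at most 0.245 CPM per kb in shCtrl.

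ITGB1, the beta chain shared by 12 of the 24 known integrin pairs, fell. It was at 795 and 707 CPM in shCtrl replicates 1 and 2 and at 251 and 222 CPM in shPML replicates 1 and 2. Both shPML libraries were far below both shCtrl libraries, and the libraries within a group lay close together. The level was 3.17-fold lower, and the log2 fold change without the block was -1.67 (standard error 0.17, edgeR adjusted p = 0.0484), from a log2 ratio of -1.66 in experiment 1 and -1.67 in experiment 2. Over 10 alternatives its adjusted p ranged from 2.5e-72 to 0.376, and its log2 fold change stayed between -1.77 and -1.56 when any 1 library was left out. ITGB1 occupies bases 32900318 to 32958230 of chromosome 10 (GRCh38, minus strand) and shares no exonic base with another gene of the table.

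ITGA5 and ITGA2, which both pair with ITGB1 alone, rose. ITGA5, the alpha chain of the main fibronectin receptor, was at 319 and 335 CPM in shCtrl and at 816 and 842 CPM in shPML. The groups were far apart and the experiments alike, with log2 ratios of 1.35 and 1.33. Its log2 fold change without the block was 1.34 (standard error 0.15, edgeR adjusted p = 0.0484), and over 10 alternatives the adjusted p ranged from 4.3e-49 to 0.389. ITGA2, the alpha chain of a collagen receptor that also binds laminin, was at 14.6 and 12.6 CPM in shCtrl and at 42.8 and 40.5 CPM in shPML. It was 3.07-fold higher, with log2 ratios of 1.55 and 1.68 in experiments 1 and 2, and the groups did not overlap. The 3 calls made without the block sat at the edge of the threshold, and RLE scaling, or leaving out either shCtrl library or shPML replicate 2, left none of them called. Without shPML replicate 2 the log2 fold changes were -1.58 for ITGB1, 1.32 for ITGA5 and 1.66 for ITGA2.

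The DNA just upstream of these 3 chains is shown because they moved in opposite directions in both experiments. Each line gives the 250 bases before the RefSeq start on the gene's own strand (GRCh38.p14), at chr10:32958231-32958480 for ITGB1 (minus strand), chr5:52989102-52989351 for ITGA2 (plus strand) and chr12:54419267-54419516 for ITGA5 (minus strand). Capitals mark matches, on either strand, to the GC box GGGCGG and to the kappa B pattern, named here without its letters.
ITGB1: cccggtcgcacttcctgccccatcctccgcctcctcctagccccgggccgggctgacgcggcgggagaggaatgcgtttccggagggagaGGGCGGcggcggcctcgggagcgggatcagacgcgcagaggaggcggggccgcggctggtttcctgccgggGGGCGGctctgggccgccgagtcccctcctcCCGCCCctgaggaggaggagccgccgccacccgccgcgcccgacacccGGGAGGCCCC
ITGA2: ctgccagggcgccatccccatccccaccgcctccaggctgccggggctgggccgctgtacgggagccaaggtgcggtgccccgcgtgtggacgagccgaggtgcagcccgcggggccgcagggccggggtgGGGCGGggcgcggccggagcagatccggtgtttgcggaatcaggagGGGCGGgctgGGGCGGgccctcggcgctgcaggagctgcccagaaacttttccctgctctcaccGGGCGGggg
ITGA5: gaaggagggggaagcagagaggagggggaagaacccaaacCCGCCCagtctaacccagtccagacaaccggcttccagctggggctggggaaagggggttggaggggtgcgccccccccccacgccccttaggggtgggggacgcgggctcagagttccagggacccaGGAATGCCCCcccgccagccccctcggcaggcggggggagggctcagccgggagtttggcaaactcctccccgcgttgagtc
All 3 windows are rich in G and C, with 78.4% in ITGB1, 76.4% in ITGA2 and 70.0% in ITGA5. The GC box occurs 3 times in ITGB1, 4 times in ITGA2 and once in ITGA5. A kappa B match stands at bases 10 to 1 before the start of ITGB1, where it reads on both strands, and at bases 82 to 73 before the start of ITGA5. Of the 26 chains with a promoter in the table, 13 hold a GC box, against 42.3% of 27305 promoters, and 7 hold a kappa B match, against 9.57%. The AP-1 word TGANTCA (LAMA3), the SRF CArG box (ITGB6) and TATAAA (ITGA6) were each found in 1 chain, against 6.60%, 1.14% and 11.1% of promoters. CCAAT was found in 4 chains (33.0% of promoters) and the hypoxia response core ACGTG in 2 (18.7%). Both strands were searched, no motif here contains another, and a match is only a match of letters.

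ITGA1, ITGA10 and ITGA11 are the other collagen receptor alphas, all partners of ITGB1. ITGA1 was at 28.9 and 26.9 CPM in shCtrl and at 42.6 and 34.2 CPM in shPML. Its log2 fold change, 0.46 (standard error 0.18), was just short of the fold threshold, and it was not called. Without shPML replicate 1 it was 0.28. Its exons share 499 bases, 4.64% of their length, with PELO on the same strand. ITGA10 was rare, with 40 and 17 counts in shCtrl and 106 and 41 in shPML, and its log2 fold change was 1.28 (standard error 0.50). The edgeR adjusted p was 0.267 unblocked and 0.0501 with the block, the lowest of the 10 alternatives (highest 0.795). In both chains the shPML libraries lay above the shCtrl libraries. ITGA11 had 0 counts in shCtrl and 2 and 4 counts in shPML, too few to test.

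Of the laminin receptor chains, none was called higher and ITGA3 was called lower with the block, against 8.57% and 10.5% of all tested genes. ITGA3, the alpha chain of the laminin receptor alpha 3 beta 1, was at 2337 and 2710 CPM in shCtrl and at 1486 and 2048 CPM in shPML. Both shPML libraries were lower, although the spread within each group was wide. Its log2 fold change was -0.51 (standard error 0.21, edgeR adjusted p = 0.292) without the block and -0.53 (standard error 0.09) with it, where it was called just past the fold threshold. In experiment 1 the log2 ratio was -0.65, in experiment 2 it was -0.40, and without shPML replicate 1 the fit gave -0.31. ITGA6, which pairs with ITGB1 or ITGB4, was at 65.9 and 58.4 CPM in shCtrl and at 68.7 and 69.1 CPM in shPML, a log2 fold change of 0.15 (standard error 0.15). ITGA7 was rare, with 1.51 and 1.31 CPM in shCtrl and 1.31 and 1.53 CPM in shPML, and the libraries overlapped. ITGB4, the beta chain of hemidesmosomes, had 0 counts in both shCtrl libraries and 2 and 1 in shPML, and it shares no exonic base with another gene, so of the ITGA6 partners only ITGB1 was measured above the floor of 3 counts.

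ITGAV and its partners bind RGD ligands, and the beta 6 and beta 8 pairs also activate latent TGF-beta. ITGAV rose from 219 and 212 CPM in shCtrl to 399 and 399 CPM in shPML in the fit with the block, by 0.89 on the log2 scale (standard error 0.10). Without the block the value was the same to 2 decimals and edgeR's adjusted p was 0.0681. Over the 10 alternatives that p ranged from 5.1e-19 to 0.529, and leaving out single libraries moved the log2 fold change only between 0.86 and 0.93.
Of its beta partners, ITGB8 was at 87.5 and 122 CPM in shCtrl and at 144 and 212 CPM in shPML. It was called higher with the block, by 0.76 on the log2 scale (standard error 0.10), and the experiments differed in level more than in ratio (0.72 and 0.79). Without shPML replicate 2 the unblocked value was 0.46. ITGB5, the vitronectin receptor's beta chain, was at 348 and 295 CPM in shCtrl and at 434 and 421 CPM in shPML. It had a blocked log2 fold change of 0.42 (standard error 0.10), which is under the fold threshold of 0.5, although the groups did not overlap. ITGB3 was at 216 and 135 CPM in shCtrl and 216 and 175 CPM in shPML, and ITGB6 at 26.8 and 29.6 CPM in shCtrl and 31.3 and 24.7 CPM in shPML. In both the groups overlapped, with log2 fold changes of 0.16 (standard error 0.27) and -0.01 (standard error 0.19). ITGB3 shares 51.6% of its exonic bases with a gene on the same strand, AC068234.1, which has 0 counts in all libraries, so reads there may have gone uncounted and its level is a lower estimate. ITGA2B, the platelet partner of ITGB3, had 4 to 19 counts per library, and ITGA8 had 1 count in all.

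The make-up of integrin mRNA therefore differed in both directions at once. Summed over the 12 alpha chains that can pair with ITGB1, the level was 599.7 and 677 CPM per kb in shCtrl and 572 and 693 CPM per kb in shPML, so the libraries of the groups overlapped in the total. ITGA3 made up 79.7% and 81.9% of that sum in shCtrl and 53.1% and 60.5% in shPML. ITGA5 made up 12.5% and 11.6% in shCtrl and 33.5% and 28.6% in shPML, and ITGAV 5.07% and 4.33% against 9.65% and 7.97%. ITGB1 stood at 0.335 and 0.264 of the alpha sum in shCtrl and at 0.111 and 0.0812 in shPML, per length. The other beta partners of ITGAV together (ITGB3, ITGB5, ITGB6 and ITGB8) were at 0.709 and 0.653 of ITGB1 in shCtrl and at 2.67 and 2.90 of it in shPML. ITGA5 was at 0.374 and 0.441 of ITGB1 in shCtrl and at 3.02 and 3.52 of it in shPML. These are shares of mRNA per summed exon length, with no test, and neither protein nor surface level was measured.
By pair, 16 of the 24 heterodimers had both chains tested. In 3 of them the alpha chain was called higher and ITGB1 lower in the fit with the block, namely ITGA2, ITGA5 and ITGAV with ITGB1. In 1, ITGA3 with ITGB1, both were called lower. In 3 both were called higher, namely ITGAV with ITGB8, and ITGAM and ITGAX with ITGB2. The highest library of ITGB2, ITGAM and ITGAX was shPML replicate 2, the one with the leukocyte markers. DESeq2 with the block did not call ITGB2 (adjusted p = 0.162). Pairs that share a chain are not separate results, and of all single genes tested edgeR with the block called 8.57% higher and 10.5% lower.

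Among the leukocyte chains, 4 of 5 tested were called higher with the block, against 8.57% of all tested genes. The experiments differed in the size of the rise. ITGB2 is the beta chain of all CD11 integrins, which let leukocytes adhere to endothelium and take up complement-coated particles. It was at 15.4 and 7.22 CPM in shCtrl and at 26.8 and 84.2 CPM in shPML. The log2 ratio was 0.80 in experiment 1 and 3.54 in experiment 2. ITGAX, its CD11c partner, was at 0.462 and 0.389 CPM in shCtrl and at 1.83 and 19.4 CPM in shPML. ITGAM, the CD11b partner, was at 1.07 and 1.25 CPM in shCtrl and at 2.40 and 5.60 CPM in shPML. In all 3 chains shPML replicate 2 was the highest library, and shPML replicate 1 was still above both shCtrl libraries. Among the leukocyte markers of the other 3 libraries, CSF1R was lower in shPML replicate 1 (0.153 CPM, against 1.09 and 1.19 CPM in shCtrl replicates 1 and 2), while LAPTM5 was higher there (0.46 CPM against 0.0739 and 0.306 CPM), as was PTPRC (7 counts against 0 and 0).
The blocked log2 fold changes were 2.09 for ITGB2, 3.81 for ITGAX and 1.65 for ITGAM (standard errors 0.23, 0.41 and 0.38), each called higher. These standard errors do not measure the gap between the experiments. The log2 ratios in experiments 1 and 2 were 0.80 and 3.54 for ITGB2, 1.89 and 5.50 for ITGAX, and 1.13 and 2.13 for ITGAM. Without shPML replicate 2 the unblocked values, 2.29, 4.61 and 1.78 with it, were 1.24, 2.09 and 1.05. With DESeq2 and the block, which called 5.98% of all tested genes higher and 7.85% lower, ITGB2 was not called (adjusted p = 0.162), the 1 chain of the 11 that this fit did not call. How far the leukocyte RNA of shPML replicate 2 enters these rises was not tested. ITGB2 shares 220 exonic bases with ITGB2-AS1 on the opposite strand, and the ratio of ITGB2 to ITGB2-AS1 counts was 0.667, 0.639 and 0.672 in shCtrl replicate 1, shCtrl replicate 2 and shPML replicate 1, but 2.23 in shPML replicate 2.
ITGAL, the CD11a chain of LFA-1, was at 5 and 0 counts in shCtrl and at 0 and 69 counts in shPML, so nearly all of its reads came from shPML replicate 2. ITGA4, also mainly a leukocyte chain, had 0, 0, 1 and 10 counts in the same order, and ITGAD had at most 3. ITGAE and ITGB7 form the E-cadherin receptor of mucosal lymphocytes. ITGAE was at 23.3 and 17.3 CPM in shCtrl and 24.0 and 12.2 CPM in shPML, with overlapping groups. ITGB7 was at 17.5 and 13.8 CPM in shCtrl and at 23.4 and 23.4 CPM in shPML, and was called higher with the block at 0.58 (standard error 0.14). Its exons share 51.8% of their bases with ZNF740 on the opposite strand. The strand setting of the counting was not given in the sources used here. Reads of the shared bases may thus have gone uncounted or been counted for the wrong gene. ITGA9 had 3 counts in all.

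**Figure D1:**
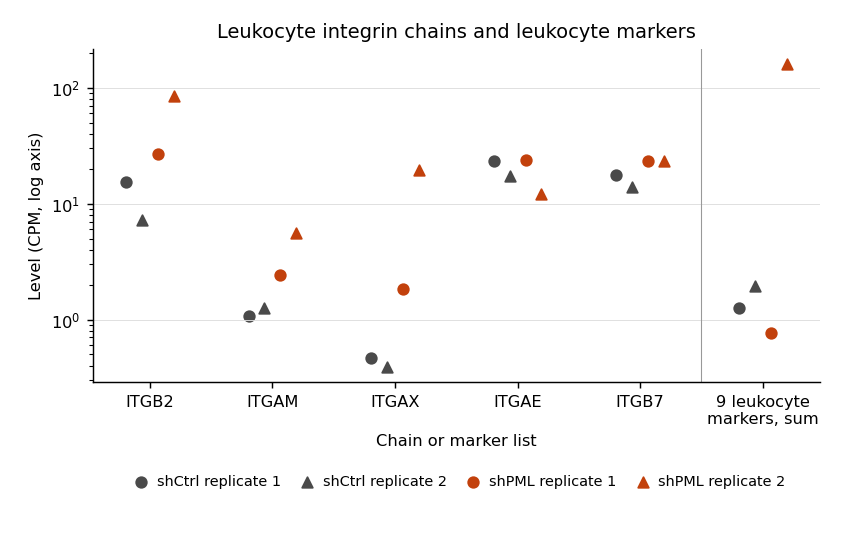
Level in CPM on a log axis of the 5 tested leukocyte integrin chains and, right of the line, of the sum of 9 leukocyte markers, in each of the 4 libraries. Grey is shCtrl, orange shPML, circles replicate 1 and triangles replicate 2. shPML replicate 2 is highest for ITGB2, ITGAM, ITGAX and the markers, and lowest for ITGAE.

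Among the 8 tested laminin chains, 1 beta and 2 alpha chains were called higher with the block and none lower. Of all tested genes 8.57% were called higher and 10.5% lower, so none lower among 8 says little about direction. LAMB1, the beta chain of most laminins, was at 858 and 641 CPM in shCtrl and at 1184 and 981 CPM in shPML. Both shPML libraries were above both shCtrl libraries, and experiment 1 was higher than experiment 2 in each group. The blocked log2 fold change was 0.54 (standard error 0.09), with 0.46 and 0.61 in the experiments, and the unblocked fit gave 0.53 with an edgeR adjusted p of 0.276. Leaving out shCtrl replicate 2 from that fit gave 0.33. LAMA3, the alpha chain of the epithelial laminin that ITGA3 and ITGA6 pairs bind, was at 257 and 209 CPM in shCtrl and at 359 and 306 CPM in shPML. It had a blocked log2 fold change of 0.52 (standard error 0.10), with 0.48 and 0.55 in the experiments. LAMB1 and LAMA3 are thus just past the fold threshold of 0.5, and ITGA1 and ITGB5 just short of it.
LAMA5, the alpha chain most widespread in adult basement membranes, changed more but on very different levels. It was at 11.4 and 46.0 CPM in shCtrl and at 38.0 and 83.4 CPM in shPML, so shPML replicate 1 lay below shCtrl replicate 2 and the groups overlapped. Within the experiments its log2 ratio was 1.73 and 0.86, and the blocked log2 fold change was 1.28 (standard error 0.14). Unblocked it was 1.08 (standard error 0.70), and 0.41 without shCtrl replicate 1 or without shPML replicate 2, against 2.40 without shCtrl replicate 2. LAMA5 made up 3.90% and 17.0% of the alpha chains per length in shCtrl and 8.91% and 20.1% in shPML, LAMA3 taking most of the rest with 76.5% to 91.0%.
LAMB3, the partner of LAMA3 in epithelial laminin, was at 736 and 750 CPM in shCtrl and at 671 and 730 CPM in shPML, a log2 fold change of -0.09 (standard error 0.15). LAMC1, the gamma chain of most laminins, was at 688 and 607 CPM in shCtrl and at 674 and 604 CPM in shPML, a log2 fold change of -0.02 (standard error 0.16). LAMB2 was at 194 and 191 CPM in shCtrl and at 210.1 and 208 CPM in shPML, a log2 fold change of 0.12 (standard error 0.14). These 3 chains were called in none of the fits run. LAMA1, the embryonic alpha chain, was at 11.2 and 7.14 CPM in shCtrl and 12.6 and 10.6 CPM in shPML, and LAMA2, the muscle chain, had 83 and 17 counts in shCtrl and 129 and 43 in shPML, neither called. LAMA4 had 1, 3, 0 and 0 counts, LAMB4 had 2, 0, 15 and 7, and LAMC3 had 6, 0, 0 and 9, in shCtrl replicates 1 and 2 and shPML replicates 1 and 2, and none was tested.

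Other genes of the integrin pathway were taken from 3 lists of 105 genes in all, of which 87 passed the filter. Without the block edgeR called 0 higher and 1 lower, with 9 and 10 of the 87 at an unadjusted p under 0.05, against the 7.8% and 10.1% of all tested genes. DESeq2 without the block called 4 and 7, against 3.11% and 5.12% of all tested genes. With the block edgeR called 8 higher and 13 lower, against the 8.57% and 10.5% of all tested genes given above, while their median log2 fold change was 0.04. The gene called without the block was CD81, a tetraspanin that associates with integrins in the membrane. It was at 209.8 and 229 CPM in shCtrl and at 49.6 and 59.1 CPM in shPML, a log2 fold change of -2.01 (standard error 0.17).
Of the adaptors and kinases at integrin tails, 4 of 38 were called higher and 5 lower with the block. That is near the 8.57% and 10.5% of all tested genes. TLN1, talin 1, which binds the beta tail and links it to actin, was at 875 and 788 CPM in shCtrl and at 281 and 334 CPM in shPML. Its unblocked log2 fold change was -1.43 (standard error 0.17, edgeR adjusted p = 0.052), close in size to that of ITGB1. The crosslinker ACTN4 had a blocked value of -0.79, and the docking protein NEDD9 one of -0.65. ITGB3BP, at -0.70, is named for ITGB3 but is also a centromere protein. TNS3, a tensin, had 0.82 and KANK2, which binds talin, had 0.56. FERMT3, the kindlin of blood cells, was at 1.31 and 1.78 CPM in shCtrl and at 3.40 and 12.1 CPM in shPML, so that its highest library was also the one with the leukocyte markers. PLEC was called higher at 0.60, but its unblocked value of 0.76 turned to -0.22 without shPML replicate 2, and was 0.47 without shCtrl replicate 1 and 1.33 without shPML replicate 1. Leaving out shPML replicate 2 moved FERMT3 from 2.32 to 1.14 and KANK2 from 0.58 to 0.31, and NEDD9 was -0.43 in place of -0.68 without shCtrl replicate 2.
Of the matrix ligands and laminin partners, 3 of 25 were called higher and 2 lower with the block. That too is near the 8.57% and 10.5% of all tested genes. EDIL3, an RGD ligand of the ITGAV pairs, fell from 310.1 and 381 CPM to 160 and 174 CPM, a blocked log2 fold change of -1.05 (standard error 0.10). LTBP3, which holds latent TGF-beta in the matrix, rose from 25.1 and 30.7 CPM to 67.3 and 160 CPM, and NID1, which ties laminin to type IV collagen, from 49.7 and 63.1 CPM to 78.8 and 88.8 CPM. Their blocked values were 1.90 and 0.58. FBN1 stayed below 1 CPM in every library (blocked value 2.20), and NTN4, a netrin that binds laminin gamma chains, had -0.54. Unblocked, LTBP3 was at 2.03, and at 1.27 without shPML replicate 2. Without shCtrl replicate 1, FBN1 moved from 2.11 to 3.18 and NTN4 from -0.54 to -0.26.
Of the cell-surface ligands and partner receptors, 1 of 24 was called higher and 6 lower with the block, against 8.57% and 10.5% of all tested genes. The 1 was ICAM1, a ligand of the ITGB2 pairs, at 266 and 279.6 CPM in shCtrl and at 427 and 443 CPM in shPML, a blocked log2 fold change of 0.67 (standard error 0.10). ICAM3, another such ligand, had -1.50, SLC3A2, which associates with beta tails, -1.11, and SDC4, a syndecan that acts beside ITGA5 on fibronectin, -0.92, each lower in both experiments. Of the pathway genes named here as called with the block, DESeq2 with the same block did not call PLEC, ITGB3BP and NTN4 (adjusted p of 0.332, 0.0624 and 0.288) and gave FBN1 no adjusted p.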

How the data were processed

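RNA of RCC4 cells was measured in 2 shCtrl and 2 shPML libraries, grouped by their labels. The authors trimmed reads with Trimmomatic 0.39, used STAR for alignment to GRCh38, and counted per gene with featureCounts 1.6.4. The table they deposited holds unnormalized read counts and also gives the exon length of each gene. The Gencode release and strand setting are not given in the sources used here. Columns were matched by name, and the unnumbered column of each group was taken as replicate 1 because the other carries a 2.

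Counts were analysed with R 4.3.3, edgeR 4.0.16 and DESeq2 1.42.0, and with Python 3.11.15 and pandas 2.3.3. Genes kept by filterByExpr (16516) were TMM-scaled and fitted with edgeR's quasi-likelihood test without a block. The thresholds (adjusted p of 0.05, log2 fold change of 0.5) are those of the study. Standard errors were derived from the F statistic, and log2 ratios within an experiment used a prior count of 2. With 2 libraries against 2, edgeR and DESeq2 estimate the spread of a gene partly from other genes. With the block, p-values and standard errors thus do not show how alike the ratios of the 2 experiments were. All p-values cover these libraries only. The methods describe 2 experiments with separate infections, and the replicate numbers were read as those experiments. Deviations of the replicate 1 libraries from their group means had a correlation of 0.546 across genes. Experiment held 44.9% of the variance of log2 CPM and condition 41.8%. The common dispersion in edgeR, a spread shared by all genes, was 0.0813 without the block and 0.0137 with it. The replicate block is therefore given where it changes a call.

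The members, lists, named genes and tests were chosen with earlier results of these data known. All 37 chains are accounted for. Of each list, up to 4 genes per direction were named, with the largest change among those called with the block and moving the same way in both experiments, plus any gene called without it. Markers printed by name were picked from their list after their values were seen. Summed over 5 endothelial markers the level was at most 0.153 CPM in 3 libraries and 4.26 CPM in shPML replicate 2. In that library PECAM1 was at 4.11 CPM and TIE1 at 0.145 CPM, and CDH5, TEK and CLEC14A had 0 counts. Over 5 fibroblast markers the sum was 11.1 to 23.0 CPM. Promoters came from RefSeq (GRCh38.p14), with 26 of the 37 symbols matched. Alternatives were DESeq2, the block in both tools, RLE scaling, no filter, a minimum of 10 counts per library, the fold threshold dropped or raised to 1 (log2), and each library left out in turn.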

Additional observations from a re-analysis of the deposited data

How the results depend on the processing

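Calls depended on how the experiment was treated. Without the block, 2 chains were called higher and 1 lower, and of the pathway genes 0 were higher and 1 lower. With the replicate block these counts were 11, 2, 8 and 13 in edgeR and 10, 2, 6 and 8 in DESeq2, and the 10 and the 2 chains of DESeq2 were all among those of edgeR. DESeq2 without the block gave 5 higher chains, 4 higher and 7 lower pathway genes. With no filter the counts were 9 higher chains, 7 higher and 8 lower pathway genes, and with at least 10 counts in every library 3 pathway genes were lower. RLE scaling gave 0 in all 4 counts, and the adjusted p of ITGB1, ITGA2 and ITGA5 was then 0.0501. Dropping or raising the fold threshold in the fit without the block changed none of its counts, and was not run with the block. Leaving out 1 library, with the lone library of a group assumed to vary like the other, gave 0 to 3 higher and 0 to 1 lower chains, and 0 to 2 higher and 0 to 1 lower pathway genes.

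The chains that changed sign had log2 fold changes between -0.22 (ITGA2B) and 0.16 (ITGB3) in the fit without the block. ITGA7 was -0.0018 with the replicate block. ITGB6 was 0.000613 in DESeq2 without the block, 0.00465 under RLE scaling, 0.00228 without a filter and 0.0083 with at least 10 counts in every library. Between the lowest and highest values with 1 library left out, ITGA2B ranged from -0.76 to 0.32, ITGA7 from -0.11 to 0.13, ITGAE from -0.75 to 0.24, ITGB3 from -0.15 to 0.55, ITGB6 from -0.20 to 0.15 and LAMC1 from -0.11 to 0.089. The causes were not tested. ITGA2B had 4 to 19 counts per library, which limits its precision.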
